A study of Mus musculus with 29 samples.

Results

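The respiratory chain of mitochondria is built from subunits encoded in 2 genomes, and 53 of its genes were followed here across the mouse aortic arch: 13 encoded by mitochondrial DNA (mtDNA) and 40 encoded in the nucleus. They were chosen by a list of names, mapped to the Ensembl identifiers of a table of 56748 genes. Of the 53 genes, 52 had enough counts to be tested among 12353 genes. The mtDNA-encoded mt-Atp8 did not, which left 12 mtDNA-encoded and 40 nuclear genes in the tests.

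The study asked how the aorta changes in a mouse with a DNA repair defect and what food restriction does to it. Ercc1Δ/- mice carry 1 Ercc1Δ and 1 Ercc1- allele, in an F1 C57BL6J/FVB hybrid background, and their wildtype (WT) F1 littermates were the controls. Every mouse ate AIN93G pellets, either ad libitum (AL) or under dietary restriction (DR), and was housed alone. DR began at 7 weeks of age and reached a 30% reduction in food at 9 weeks. RNA of the aortic arch of each mouse made 1 library. The groups were WT AL at 6 weeks (n = 5), Ercc1Δ/- AL at 6 weeks (n = 5), WT AL at 22 weeks (n = 4), Ercc1Δ/- AL at 22 weeks (n = 4), WT DR at 22 weeks (n = 5) and Ercc1Δ/- DR at 22 weeks (n = 5). They held 11 females and 17 males, with both sexes in every group. A 29th library, WT AL at 22 weeks, was not used in the comparisons.

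Electrons that enter the chain at complex I or complex II pass through complex III and cytochrome c to complex IV. The proton gradient that results drives complex V, the ATP synthase. mtDNA encodes the core membrane subunits of complexes I, III, IV and V, and none of complex II. The nucleus encodes all the others, which are made in the cytosol and imported. mtDNA is transcribed as long transcripts from both strands that are cut into single RNAs, while each nuclear gene has its own promoter. Brown fat, which can lie around the mouse aorta, is rich in mitochondria.

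The 28 libraries held 921167 to 9616382 gene counts, with a median of 3256710. At 22 weeks the totals separated the genotypes within each diet, though not across diets. The 4 WT AL libraries had 3903589 to 9616382 counts and the 4 Ercc1Δ/- AL libraries 1294980 to 3855444, and the WT DR and Ercc1Δ/- DR libraries had 2660422 to 6124471 and 921167 to 2572523. Depth and genotype therefore cannot be told apart fully at that age. Ercc1 itself, which checks the labels, had a median of 30.6 CPM (counts scaled by TMM to a common library size) in 14 WT libraries and 14.7 in 14 Ercc1Δ/- libraries. Ranges were 14.1 to 36.8 and 7.62 to 21.2, and a single WT library with 13 Ercc1 counts made them overlap. Smooth muscle markers, which define the arterial wall, summed to 16650 to 42709 CPM in every library. Fat was in every library too: 9 white fat markers summed to 1348 to 3433 CPM and 8 brown fat markers to 98.5 to 1567 CPM. Ucp1, the uncoupling protein of brown fat, had 44 to 4137 counts and Adipoq, an adipocyte hormone, 24 to 814.

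A stretch of chromosome 1 repeats part of mtDNA, so that some mtDNA genes share their sequence with it. In GRCm39, chrM:6394-9828 matched the minus strand of chr1:24651831-24655265 over 3435 bases with 1 difference, and chrM:9821-11042 matched chr1:24650616-24651837 over 1222 bases with none. The whole of mt-Co2, mt-Co3, mt-Atp6, mt-Atp8, mt-Nd3 and mt-Nd4l, 63.6% of mt-Nd4 and 31.0% of mt-Co1 lay in this copy. None of mt-Nd1, mt-Nd2, mt-Nd5, mt-Nd6 or mt-Cytb did. The difference was T9461C, with positions counted from 1 on chrM, the mtDNA base first and the base of the copy last. It is shown here because it was the only base in which the copy differs from mt-Nd3, in capitals, read 5′ to 3′ on the plus strand of chrM:9436-9485 and on the minus strand of chr1:24652174-24652223 (RefSeq GRCm39).
mt-Nd3 in mtDNA: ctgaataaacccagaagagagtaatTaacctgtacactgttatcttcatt
copy on chromosome 1: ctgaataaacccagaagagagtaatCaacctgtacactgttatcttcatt

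Genes of mtDNA also share bases with each other. The end of mt-Atp8 and the start of mt-Atp6, both subunits of the ATP synthase, overlap by 43 bases at chrM:7927-7969 on the plus strand. They are in capitals in this stretch of chrM:7912-7984 (RefSeq GRCm39), shown because mt-Atp8 lay wholly inside the copy and partly inside its neighbour and was the gene that could not be tested.
mt-Atp8 and mt-Atp6: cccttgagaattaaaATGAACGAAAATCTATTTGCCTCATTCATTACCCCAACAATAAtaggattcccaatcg
mt-Nd4l and mt-Nd4 overlap by 7 bases, and mt-Nd5 and mt-Nd6 by 14 bases on opposite strands.

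Levels per kilobase were lower for mtDNA genes wholly inside the copy than for the others, apart from mt-Nd6. Among genes outside it, the median over 28 libraries was 7259 CPM per kb for mt-Cytb (cytochrome b of complex III), 4370 for mt-Nd1, 3979 for mt-Nd2 and 3002 for mt-Nd5, all core subunits of complex I. mt-Nd6, the complex I subunit read from the other strand, had 85.8 CPM per kb. Of the 2 genes partly inside it, mt-Co1 (the catalytic subunit of complex IV) had 9215 and mt-Nd4 had 2753 CPM per kb. The genes wholly inside it had 293 CPM per kb for mt-Co2, 206 for mt-Co3, 149 for mt-Atp6, 12.6 for mt-Nd3, 10.9 for mt-Nd4l and 0.873 for mt-Atp8. In counts, mt-Co1 had 17552 to 92001 in a library, mt-Nd3 4 to 36 and mt-Nd4l 4 to 22. mt-Atp8 had 0 to 3 counts and was at 0 in 13 of 28 libraries. Counts were also given to the pseudogenes annotated in the copy, for example 388 to 1594 for Gm28661 and 202 to 780 for Gm28437. Since the copy is nearly identical to mtDNA, whether these counts come from the copy or from mtDNA was not tested. Reads with no unique place were 3.66% to 7.06% of a library. What part of these reads belongs to the 6 genes was not tested. Because they share sequence with the copy, the levels of these 6 genes are uncertain.

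**Figure D1:**
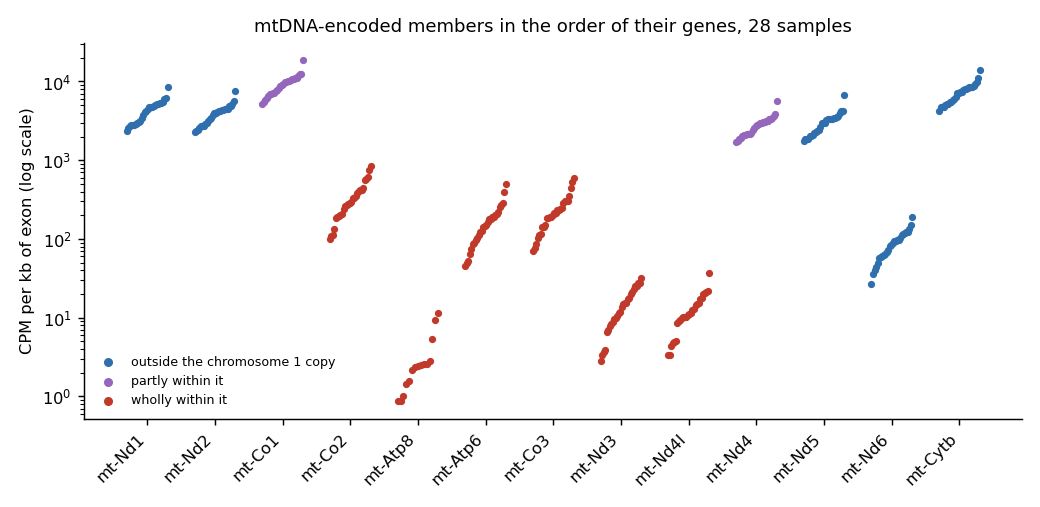
Level of each of the 13 mtDNA-encoded genes in the 28 libraries, in CPM per kb of exon on a log axis, coloured by whether the gene lies outside, partly inside or wholly inside the near-identical stretch of chromosome 1. Genes wholly inside it had medians of 0.873 to 293 CPM per kb, 6 of the 7 other genes had medians of 2753 or more and mt-Nd6 had 85.8. Libraries with 0 counts of mt-Atp8 (13 of 28) are not drawn.

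All 40 nuclear genes had counts in every library. Their reads were counted over the gene body, which can hold introns, so their levels were not compared with each other per length. The mtDNA-encoded genes have no introns.

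Nuclear subunits have promoters of their own, and the activators NRF1 and the ETS factor GABP are known to bind many of them. RefSeq promoters (GRCm38.p6) were matched for 28 of the 40 nuclear genes. In the 250 bases before the start, on both strands, the NRF1 motif (GCGCA, any base, then GCGC) was found for 5 of the 28 genes (17.86%: Cox6a1, Ndufa5, Ndufs6, Sdha and Sdhd) and for 4.233% of all 27025 genes with promoters. The ETS motif CCGGAAG was found for 4 of the 28 (14.29%: Cox6a1, Cox6b1, Ndufs3 and Sdhd) and for 7.826% of all genes. A match is a description of letters and not a site. Sdha, the flavoprotein subunit of complex II, and Cox6a1 are shown because they held the most NRF1 matches. The last 150 bases before the start are printed, on the minus strand at chr13:74350241-74350390 for Sdha and chr5:115348959-115349108 for Cox6a1, with matches in capitals. Those of Sdha are 3 NRF1 matches, and those of Cox6a1 are 1 NRF1 match and 1 ETS match read on the other strand. The other NRF1 match of Cox6a1 lay further from the start.
Sdha: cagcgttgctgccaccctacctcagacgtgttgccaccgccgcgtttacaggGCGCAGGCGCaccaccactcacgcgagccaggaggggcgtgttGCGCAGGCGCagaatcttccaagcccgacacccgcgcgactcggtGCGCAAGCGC
Cox6a1: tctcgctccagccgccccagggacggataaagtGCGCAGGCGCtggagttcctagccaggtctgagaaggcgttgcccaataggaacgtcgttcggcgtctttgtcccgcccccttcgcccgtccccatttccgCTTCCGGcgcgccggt

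The 13 mtDNA-encoded genes took 2.33% to 8.29% of all gene counts of a library and the 40 nuclear genes 0.340% to 0.839%. In WT AL mice at 22 weeks the mtDNA share was 2.33%, 2.61%, 2.97% and 3.42%. In Ercc1Δ/- AL mice of that age it was 4.66%, 4.70%, 4.92% and 5.24%, so that each of these mice lay above each WT AL mouse of its age. The nuclear share of the same mice was 0.395%, 0.431%, 0.441% and 0.457% in WT and 0.409%, 0.532%, 0.610% and 0.787% in Ercc1Δ/-, and these ranges overlapped.

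At 6 weeks the mtDNA share was 2.79%, 2.85%, 4.06%, 4.55% and 5.49% in WT mice and 2.58%, 3.41%, 4.10%, 4.197% and 4.71% in Ercc1Δ/- mice. Under DR at 22 weeks it was 2.66%, 2.78%, 2.88%, 4.41% and 4.68% in WT mice and 3.64%, 4.10%, 5.03%, 5.42% and 8.29% in Ercc1Δ/- mice. Both pairs of groups overlapped. The 2 high WT DR mice were the females of that group.

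The ratio of mtDNA to nuclear counts within a library, which no scaling between libraries can move, had group means that differed by at most 0.40 between genotypes on the log2 scale. Its log2 was 3.05 ± 0.34 (SD, n = 5) in WT and 2.92 ± 0.36 (n = 5) in Ercc1Δ/- mice at 6 weeks. At 22 weeks it was 2.702 ± 0.17 (n = 4) in WT AL, 3.10 ± 0.44 (n = 4) in Ercc1Δ/- AL, 2.72 ± 0.12 (n = 5) in WT DR and 3.02 ± 0.41 (n = 5) in Ercc1Δ/- DR mice. The difference between genotypes at 22 weeks was 0.40 under AL and 0.30 under DR, against an SD within groups of 0.330. Without Ercc1Δ/- AL library 013, which had the highest ratio of its group, the AL difference was 0.23, and without Ercc1Δ/- DR library 006 the DR difference was 0.13. Centred within groups over the 28 libraries, the ratio had r = −0.414 with the log2 library total and r = −0.400 with the level of fat markers. Without the 2 farthest libraries these were −0.316 and −0.299. The part of depth in the genotype differences of the ratio was not tested. Taken from the mean log2 CPM of the tested genes instead of summed counts, the ratio differed more between genotypes at 22 weeks. It was then 2.065 ± 0.34 in WT AL, 2.61 ± 0.39 in Ercc1Δ/- AL, 2.05 ± 0.10 in WT DR and 2.63 ± 0.43 in Ercc1Δ/- DR mice. Another ratio used summed counts without the mtDNA genes that overlap the copy, a choice made after the values were seen. It was 1.82 ± 0.13 in WT AL, 2.22 ± 0.42 in Ercc1Δ/- AL, 1.78 ± 0.11 in WT DR and 2.14 ± 0.40 in Ercc1Δ/- DR mice.

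**Figure D2:**
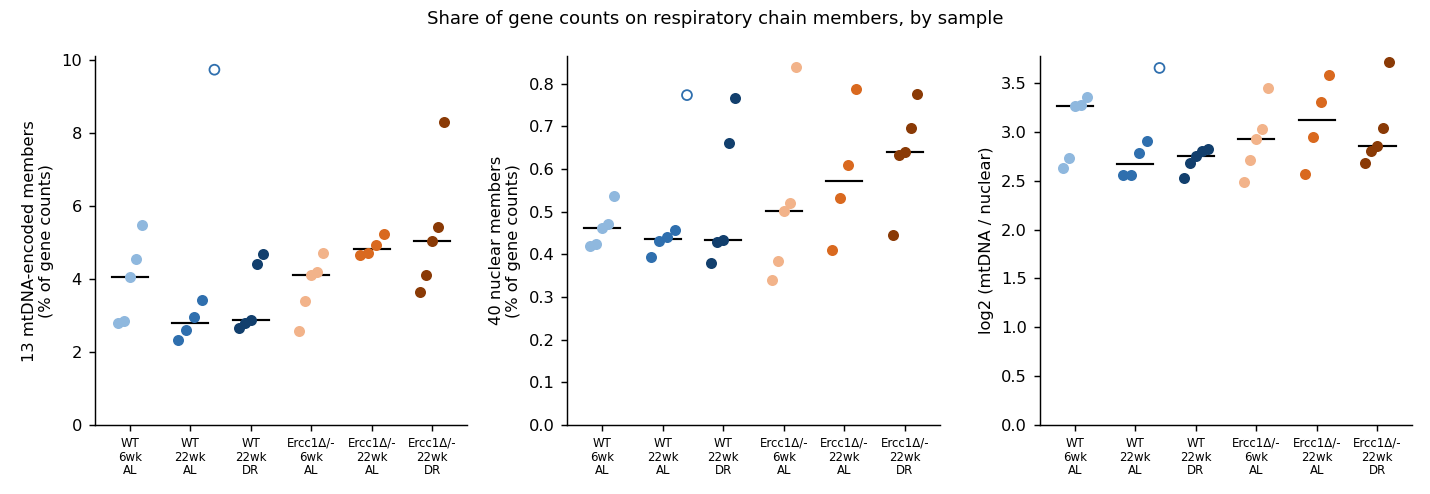
Share of gene counts on the 13 mtDNA-encoded genes, share on the 40 nuclear genes, and log2 of their ratio, 1 point per library and bars at group medians, for the 6 groups, with the 29th library as an open circle. The mtDNA shares of the 4 Ercc1Δ/- AL mice at 22 weeks (4.66% to 5.24%) lie above those of the 4 WT AL mice (2.33% to 3.42%), while the ratios of these groups overlap.

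The genotype comparison with the most calls in these genes was at 22 weeks under AL. mtDNA-encoded mt-Nd5, mt-Nd1 and mt-Co1 and nuclear Ndufb9 were higher in Ercc1Δ/- than in WT mice. All 12 tested mtDNA genes had log2 fold changes above 0, from 0.53 to 1.42 with a median of 0.94 (1.92-fold). Of the 40 nuclear genes 39 were above 0, from −0.07 to 0.94 with a median of 0.40 (1.32-fold). A gene was called when its adjusted p (Benjamini-Hochberg) did not exceed 0.05 and it changed 1.2-fold or more. By that rule 3 of 12 mtDNA and 1 of 40 nuclear genes were called, beside 12% of all tested genes (5.87% higher), whose median log2 fold change was 0.03. All 4 calls were in the higher direction. The nuclear share, 1 of 40, was below the background, and the mtDNA share, 3 of 12, was above it.

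mt-Nd5 was at 3368, 3398, 3757 and 4457 CPM in WT AL mice and at 6002, 6098, 6532 and 7591 CPM in Ercc1Δ/- AL mice. The groups did not overlap, and the log2 fold change was 0.82 (SE 0.18, edgeR quasi-likelihood adjusted p = 0.00433). mt-Nd1 was at 2271, 2708, 2929 and 3027 CPM in WT and 4910, 4957, 5303 and 5743 CPM in Ercc1Δ/- mice. These groups did not overlap either, with a log2 fold change of 0.96 (SE 0.25, edgeR adjusted p = 0.0175). mt-Co1, of which 479 bases lie in the copy, was at 7929, 8581, 10670 and 12622 CPM and at 15236, 15729, 17275 and 17953 CPM. It was higher in each Ercc1Δ/- mouse, by 0.76 on the log2 scale (SE 0.20, edgeR adjusted p = 0.0182).

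Ndufb9, an accessory subunit of complex I, was at 8.33, 10.3, 11.8 and 13.1 CPM in WT AL and 11.3, 13.3, 22.2 and 25.6 CPM in Ercc1Δ/- AL mice. Here the groups overlapped, and the call (log2 fold change 0.94, SE 0.30, edgeR adjusted p = 0.0486) was close to the limit. Cox4i1, a regulatory subunit of complex IV and the nuclear gene with the next smallest p, was at 224, 255, 257 and 261 CPM in WT and 301, 319, 351 and 431 CPM in Ercc1Δ/- mice. Its ranges were apart, but it was not called (log2 fold change 0.52, SE 0.21, edgeR adjusted p = 0.132).

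In all, 10 mtDNA and 7 nuclear genes had every Ercc1Δ/- AL mouse above every WT AL mouse at 22 weeks, and none had the reverse, beside 9.01% of all tested genes apart in this direction and 9.61% in the other. The nuclear ones were Ndufs3, Ndufs8, Uqcrq, Cox4i1, Cox5a, Cox5b and Cox6a1, of which 4 are subunits of complex IV. The 2 tested mtDNA genes whose ranges overlapped were mt-Nd3 and mt-Nd4l, those with the fewest counts.

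The size of the difference varied with the copy. The median log2 fold change was 0.82 over the 5 mtDNA genes outside it, 0.65 over the 2 partly inside and 1.33 over the 5 inside. mt-Co2, a core subunit of complex IV that lies inside it, had the largest value (1.42, SE 0.52, edgeR adjusted p = 0.0965). The mitochondrial ribosomal RNA mt-Rnr2, also read from mtDNA, rose (log2 fold change 1.39, SE 0.37, edgeR adjusted p = 0.0242), and mt-Rnr1 had 1.27 (SE 0.49, adjusted p = 0.112). Of the 5 pseudogenes in the copy, Gm28438 rose (2.04, SE 0.56, edgeR adjusted p = 0.0247), and their median was 1.33. Gm28438 had only 13 to 73 counts in a library, and whether they come from the copy or from mtDNA was not tested. Reads with no unique place were 3.66% to 4.46% in WT AL and 5.19% to 5.74% in Ercc1Δ/- AL libraries of this age, and the part of this in the result was not tested.

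Depth was apart between these groups, while their fat marker levels (centred mean log2 CPM) overlapped. The levels were −0.70 to −0.07 (median −0.40) in WT AL and −0.87 to 1.06 (median 0.38) in Ercc1Δ/- AL libraries. With the log2 library total as a further term, a choice made after the values were seen, no mtDNA gene was called by edgeR. Their median log2 fold change was then 0.51 (11 of 12 above 0), mt-Nd5 had 0.65 (SE 0.21, adjusted p = 0.0716), and 5.84% of all genes were called. With every library thinned to 921167 counts, mt-Nd5 (0.85, edgeR adjusted p = 0.00236) and mt-Nd1 (1.01, adjusted p = 0.0418) were called, beside 2.82% of all genes, as were nuclear Ndufa9, Ndufs3 and Uqcrq. With the level of fat markers as a term instead, mt-Nd5, mt-Nd1 and mt-Co1 were called, beside 8.77% of all genes, and the mtDNA median was 0.69. The nuclear median was then 0.019, with 21 of 40 above 0, and Ndufb9 was at 0.35 (SE 0.24, edgeR adjusted p = 0.432). Of brown fat markers 2 of 6 tested were higher in the Ercc1Δ/- AL mice, of white fat markers 0 of 9 were higher and 1 was lower, and of macrophage markers 6 of 8 were higher, while 6 of 8 smooth muscle markers were lower. In whole tissue, fewer cells of a type and less RNA per cell cannot be told apart.

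DESeq2 called mt-Nd1, mt-Nd2, mt-Nd5, mt-Co1 and mt-Co2 in this comparison and no nuclear gene, beside 13.6% of all genes. Leaving out 1 library changed which genes edgeR called. mt-Nd5 was called without any one of the 18 AL libraries, and was the only gene called without WT AL library 018. Without Ercc1Δ/- AL library 026, or without WT AL library 025, there were 2. There were 7 without Ercc1Δ/- library 015 and 9 without WT library 011, both of 6 weeks. Ndufb9 was called only without Ercc1Δ/- library 013, 015 or 027 or WT library 011. With the 29th library added, which had 400410 counts, none was called.

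**Figure D3:**
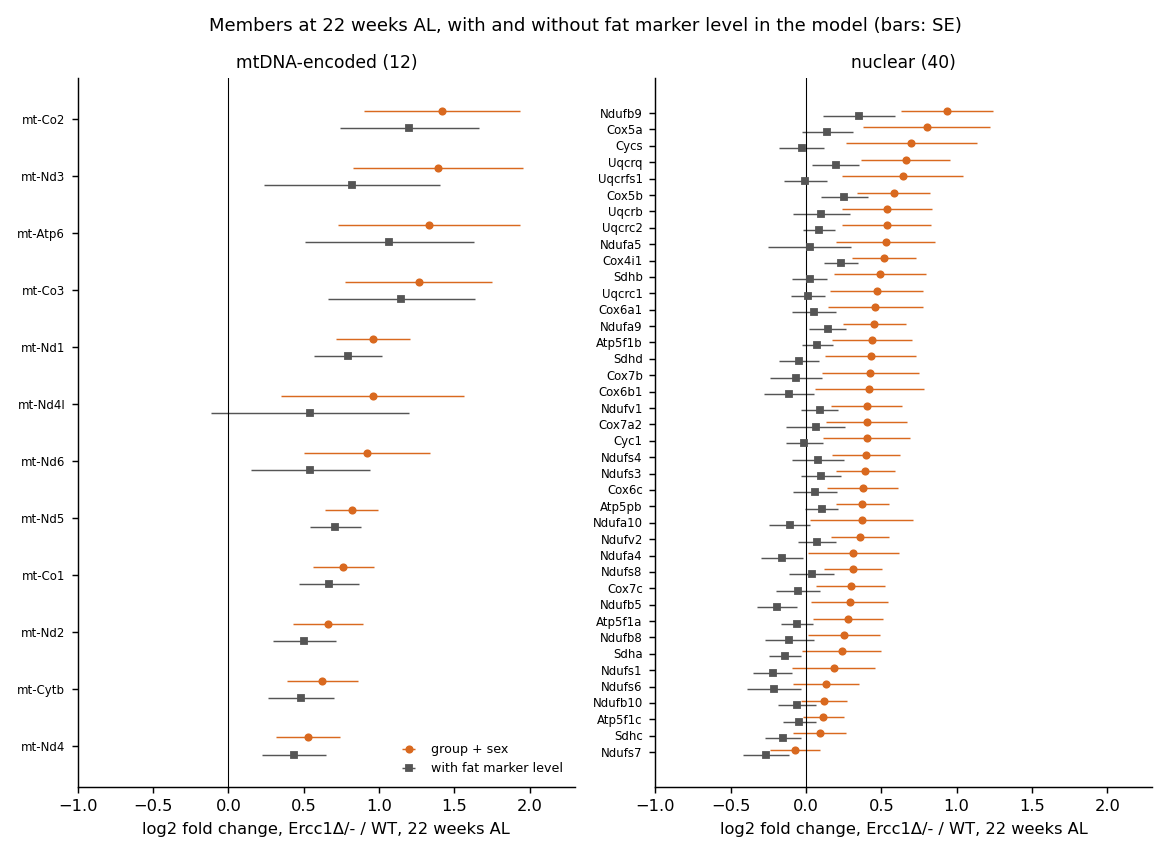
Log2 fold change of Ercc1Δ/- against WT AL mice at 22 weeks for each of the 52 tested genes, sorted by size in a panel for each genome, with group and sex in the model (orange circles) and with fat marker level added (grey squares). Lines are SE. The orange points of the 12 mtDNA genes lie between 0.53 and 1.42 and those of the 40 nuclear genes between −0.07 and 0.94.

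At 6 weeks no gene of either class passed the test between genotypes. None of the 52 was called by edgeR or DESeq2, beside 1.71% and 3.06% of all genes. None had an unadjusted p under 0.05, beside 1583 of all 12353 tested genes. The median log2 fold change was −0.09 over mtDNA genes (2 of 12 above 0, from −0.40 to 0.94) and 0.13 over nuclear genes (34 of 40 above 0, from −0.26 to 0.42). Single libraries decided both signs, since the mtDNA median was 0.20 without WT library 011 and the nuclear median −0.15 without Ercc1Δ/- library 027. No gene had groups apart, beside 1.07% and 1.81% of all genes in the 2 directions.

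The mtDNA genes with the smallest p at 6 weeks were those with the fewest counts. mt-Nd3 was at 0.988, 1.18, 6.11, 6.93 and 8.68 CPM in WT and 3.06, 3.95, 5.28, 9.48 and 9.71 CPM in Ercc1Δ/- mice (log2 fold change 0.94, SE 0.48, edgeR adjusted p = 0.43). mt-Nd4l was at 0.988, 1.47, 3.85, 4.48 and 10.8 CPM and at 1.52, 3.27, 3.69, 5.91 and 6.12 CPM (0.47, SE 0.52, edgeR adjusted p = 0.791). The groups overlapped throughout. Of nuclear genes, Uqcrq, a small subunit of complex III, was at 37.1, 41.3, 46.2, 47.3 and 62.9 CPM in WT and 33.2, 41.1, 59.8, 64.8 and 106 CPM in Ercc1Δ/- mice (0.42, SE 0.26, edgeR adjusted p = 0.573). Ndufs3, in the arm of complex I that accepts electrons, was at 40.1, 53.1, 57.1, 61.0 and 68.3 CPM and at 47.2, 53.5, 59.2, 66.9 and 103 CPM (0.25, SE 0.17, edgeR adjusted p = 0.627). In both of these the highest value was that of Ercc1Δ/- library 027, which also had the highest level of fat markers of the 28.

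Age was compared within each genotype on AL. In WT mice all 12 mtDNA genes had log2 fold changes below 0 from 6 to 22 weeks, from −1.36 to −0.43 with a median of −0.55. Of these, 8 had an unadjusted p under 0.05, beside 1069 of all 12353 tested genes. None of the 52 genes was called by edgeR or DESeq2, beside 0.235% and 0.858% of all genes. With the library total as a term the mtDNA median was −0.32 (1 of 12 above 0), and with fat markers and total together −0.26. Nuclear genes had a median of −0.17 (3 of 40 above 0) and none had an unadjusted p under 0.05. The smallest p was that of mt-Nd5, at 3992, 4261, 4866, 6353 and 6728 CPM at 6 weeks and 3368, 3398, 3757 and 4457 CPM at 22 weeks. Only the highest 22-week mouse reached the 6-week range, and the log2 fold change was −0.49 (SE 0.17, edgeR adjusted p = 0.346). mt-Co1 was next, at 9563, 11082, 15304, 16521 and 19033 CPM at 6 weeks and 7929, 8581, 10670 and 12622 CPM at 22 weeks (−0.54, SE 0.19, edgeR adjusted p = 0.378).

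Of the nuclear genes of WT mice, those with the smallest p for age were Ndufs4 and Atp5f1c. Ndufs4, an accessory subunit of complex I, was at 30.6, 37.7, 41.4, 41.6 and 46.6 CPM at 6 weeks and 29.1, 30.1, 32.8 and 35.4 CPM at 22 weeks (−0.27, SE 0.21, edgeR adjusted p = 0.798). Atp5f1c, the gamma subunit of ATP synthase, was at 120.2, 139, 146, 148 and 171 CPM and at 114, 131, 131 and 132 CPM (−0.16, SE 0.13, edgeR adjusted p = 0.808). Both overlapped between ages. Uqcrc2, a core subunit of complex III, was the only gene whose groups were apart, lower at 22 weeks, beside 2.1% of all genes apart in that direction.

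In Ercc1Δ/- mice none of the 52 genes was called with age by edgeR or DESeq2, beside 4.66% and 5.89% of all genes. The medians were 0.35 over mtDNA genes (11 of 12 above 0) and 0.11 over nuclear genes (37 of 40 above 0). In each class 1 gene had an unadjusted p under 0.05, beside 2199 of all 12353 tested genes. The nuclear median was −0.053 without Ercc1Δ/- library 004 of 22 weeks and 0.34 without library 027 of 6 weeks. mt-Nd5 was at 3855, 4176, 5474, 5892 and 6239 CPM at 6 weeks and 6002, 6098, 6532 and 7591 CPM at 22 weeks (0.35, SE 0.16, edgeR adjusted p = 0.271). mt-Nd1 was at 2452, 3285, 4070, 4295 and 5164 CPM and at 4910, 4957, 5303 and 5743 CPM (0.44, SE 0.23, edgeR adjusted p = 0.338). In both genes a single 6-week mouse reached into the 22-week range.

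Of the nuclear genes of Ercc1Δ/- mice, Ndufb9 was at 6.56, 7.79, 9.11, 15.8 and 19.0 CPM at 6 weeks and 11.3, 13.3, 22.2 and 25.6 CPM at 22 weeks (0.77, SE 0.30, edgeR adjusted p = 0.167). Uqcrb, a small subunit of complex III, was at 21.0, 31.2, 35.8, 44.6 and 67.6 CPM and at 37.7, 46.5, 57.1 and 70.4 CPM (0.46, SE 0.28, edgeR adjusted p = 0.436). Neither was called and both overlapped.

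Whether age acted differently in the 2 genotypes was tested as an interaction. For all 12 mtDNA genes the age effect was more positive in Ercc1Δ/- than in WT mice, by 0.45 to 1.73 on the log2 scale with a median of 0.87. Of these, 7 had an unadjusted p under 0.05, beside 1406 of all 12353 tested genes. None of the 12 passed the correction by edgeR, beside 0.842% of all genes, and DESeq2 called mt-Nd5 alone, beside 1.55%. The smallest values were those of mt-Nd5 (0.84, SE 0.24, edgeR adjusted p = 0.121) and mt-Co1 (0.89, SE 0.27, adjusted p = 0.157). The nuclear median was 0.24 (37 of 40 above 0), and none had an unadjusted p under 0.05. It was 0.081 without Ercc1Δ/- library 004 of 22 weeks and 0.51 without Ercc1Δ/- library 027 of 6 weeks. The 2 age effects and the genotype effects share mice and are not independent.

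No gene of either class passed the test between diets. In WT mice all 52 genes had log2 fold changes above 0, with medians of 0.28 over mtDNA genes (0.15 to 0.44) and 0.22 over nuclear genes (0.05 to 0.39). None was called by edgeR or by DESeq2, beside 1.3% and 1.85% of all genes. Of the 52, 1 had an unadjusted p under 0.05, beside 1584 of all 12353 tested genes. Without WT AL library 018 the medians were 0.10 (10 of 12 above 0) and 0.011 (21 of 40 above 0). mt-Co1 was at 7929, 8581, 10670 and 12622 CPM under AL and 10130, 10781, 11137, 16167 and 17336 CPM under DR (0.39, SE 0.25, edgeR adjusted p = 0.572). Cox4i1 was at 224, 255, 257 and 261 CPM under AL and 256, 281, 286, 395 and 441 CPM under DR (0.33, SE 0.15, edgeR adjusted p = 0.369). The values of DR mice fell into 3 low and 2 high ones, and the 2 high ones were libraries 017 and 021, which had the highest levels of fat markers in their group. These libraries were also the only females of that group, so sex and fat level cannot be told apart there.

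The same 2 libraries were highest for mt-Nd1, at 2271, 2708, 2929 and 3027 CPM under AL and 2653, 2661, 2826, 4553 and 4584 CPM under DR (0.31, SE 0.24, edgeR adjusted p = 0.65). They were highest for Ndufs3 as well, at 50.2, 52.9, 56.2 and 56.3 CPM under AL and 50.7, 55.2, 61.1, 92.9 and 93.5 CPM under DR (0.29, SE 0.15, edgeR adjusted p = 0.449). The other 3 DR mice lay in or near the AL range.

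In Ercc1Δ/- mice the medians of the DR comparison were 0.22 over mtDNA genes (10 of 12 above 0) and 0.20 over nuclear genes (37 of 40 above 0). None was called by edgeR or by DESeq2, beside 1.64% and 2.78% of all genes. Without Ercc1Δ/- DR library 006 the mtDNA median was −0.024, and with fat markers as a term it was 0.050, with 2 of the 5 genes outside the copy above 0. A single nuclear gene had an unadjusted p under 0.05, beside 1848 of all 12353 tested genes. That was Ndufs4, at 27.5, 39.2, 41.4 and 52.3 CPM under AL and 36.9, 46.3, 52.7, 57.8 and 62.7 CPM under DR (0.41, SE 0.17, edgeR adjusted p = 0.233). Ndufb10, an accessory subunit of complex I, was at 77.9, 89.9, 95.7 and 105 CPM under AL and 89.4, 99.8, 100.4, 102 and 136 CPM under DR (0.21, SE 0.11, edgeR adjusted p = 0.38). Both ranges overlapped.

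Of the mtDNA genes of Ercc1Δ/- mice, mt-Nd5 was at 6002, 6098, 6532 and 7591 CPM under AL and 5360, 5478, 7298, 7798 and 12310 CPM under DR (0.24, SE 0.26, edgeR adjusted p = 0.735). mt-Nd4l was at 2.55, 3.01, 3.36 and 4.63 CPM and at 2.95, 4.25, 5.14, 6.35 and 6.48 CPM (0.37, SE 0.47, edgeR adjusted p = 0.768). The DR mice spread wider than the AL mice in mt-Nd5, with library 006 the highest. The interaction of genotype with diet called none of the 52 genes by edgeR or DESeq2, beside 0.0971% and 0.34% of all genes. In this interaction none of the 52 had an unadjusted p under 0.05, beside 1077 of all 12353 tested genes. Its medians were −0.09 over mtDNA and −0.02 over nuclear genes, and without WT AL library 018 they were 0.12 and 0.21. Its smallest p values were those of Cox5a (−0.50, SE 0.45, edgeR adjusted p = 0.821) and mt-Nd1 (−0.33, SE 0.34, adjusted p = 0.847).

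Between genotypes under DR, mt-Co2 was the only gene of the 52 called, beside 13% of all genes (5.93% higher). All 12 mtDNA genes were above 0, from 0.40 to 1.22 with a median of 0.68 (1.60-fold), and 8 had an unadjusted p under 0.05. Nuclear genes had a median of 0.21 (37 of 40 above 0), and 1 had an unadjusted p under 0.05. Of all 12353 tested genes, 3230 had an unadjusted p under 0.05. A single call among 52 is below the background share. mt-Co2 was at 76.7, 129.6, 139, 189 and 224 CPM in WT DR and 204, 286, 304, 415 and 579.9 CPM in Ercc1Δ/- DR mice. Only the lowest Ercc1Δ/- mouse reached into the WT range, and the log2 fold change was 1.22 (SE 0.37, edgeR adjusted p = 0.0481).

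mt-Nd5, outside the copy, just missed the limit under DR. It was at 3200, 3408, 3652, 6073 and 6076 CPM in WT and 5360, 5478, 7298, 7798 and 12310 CPM in Ercc1Δ/- mice (0.78, SE 0.25, edgeR adjusted p = 0.0509). The 2 high WT values were again libraries 017 and 021. Of nuclear genes, Ndufs4 was at 30.2, 30.7, 30.7, 50.2 and 60.3 CPM in WT and 36.9, 46.3, 52.7, 57.8 and 62.7 CPM in Ercc1Δ/- mice (0.36, SE 0.15, edgeR adjusted p = 0.114). Uqcrc2 was at 112, 121, 151, 243 and 259.5 CPM and at 158, 199, 214, 233 and 269.9 CPM (0.33, SE 0.18, edgeR adjusted p = 0.272).

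The DR call changed with the terms and the libraries used. mt-Co2 was not called with fat markers or with the library total as a term, and the mtDNA medians were then 0.38 and 0.32. With both terms the median was 0.044. DESeq2 called mt-Nd1, mt-Nd5, mt-Co2, mt-Co3 and mt-Atp6, beside 14.2% of all genes. Without WT DR library 017 the mtDNA median was 0.87 and 3 genes were called, and without library 021 there were 3 as well. Without Ercc1Δ/- DR library 006, the highest in mtDNA share, it was 0.46 and none was called. None was called either without any one of Ercc1Δ/- AL libraries 004, 005 and 026, Ercc1Δ/- DR libraries 014 and 029, WT AL library 020 and WT DR libraries 007, 010 and 028. There were 2 calls without Ercc1Δ/- DR library 022 or WT AL library 018. Reads with no unique place were 4.04% to 5.04% in WT DR and 4.73% to 7.06% in Ercc1Δ/- DR libraries, and the part of this in the call of mt-Co2 was not tested.

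**Figure D4:**
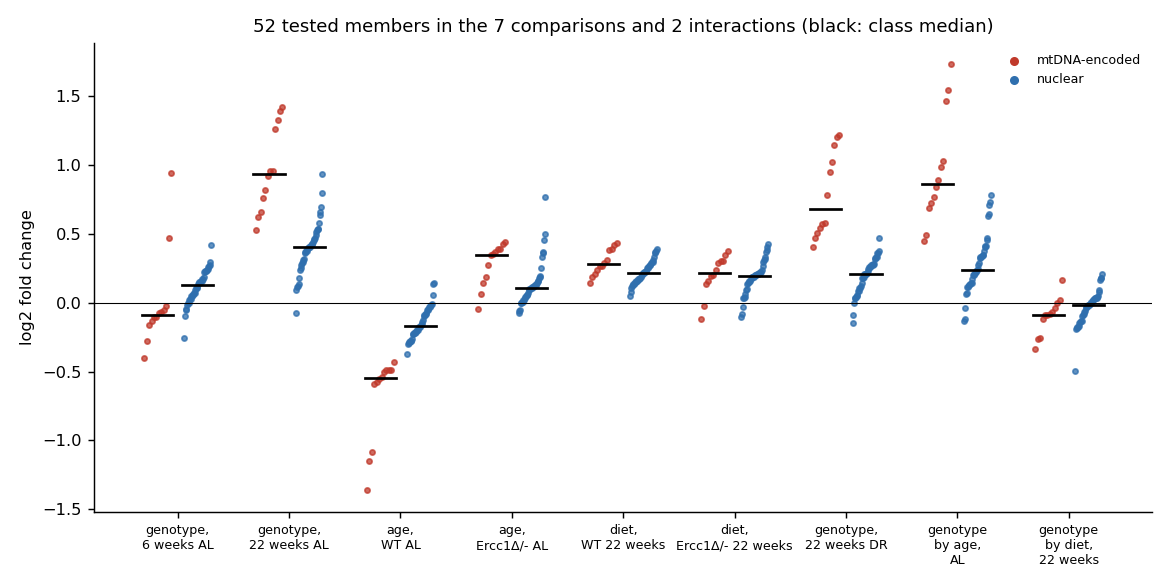
Log2 fold changes of the 12 tested mtDNA-encoded and 40 nuclear genes in 7 comparisons and 2 interactions, 1 point per gene and a bar at each median. The mtDNA medians are 0.94 between genotypes at 22 weeks under AL, 0.68 under DR and −0.55 for age in WT mice, and the nuclear medians are 0.40, 0.21 and −0.17.

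Within groups, the nuclear genes moved with fat markers. For each gene the slope on the level of 15 white and brown fat markers (their mean log2 CPM) was fitted over the 28 libraries, with group and sex in the model. All 40 nuclear genes were called, with slopes from 0.24 to 0.89 and a median of 0.54 log2 units per log2 unit of the markers. Of the 12 mtDNA genes 8 were called, with slopes of all 12 from 0.31 to 0.70 and a median of 0.43. Among all tested genes 8.91% were called (7.14% with a positive slope) and the median was −0.01. The fat marker genes are not among the 53 genes.

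By complex, the median slope was 0.49 over 15 nuclear genes of complex I, 0.58 over 4 of complex II, 0.64 over 6 of complex III, 0.58 over 10 of complex IV and 0.43 over 4 of complex V. Cox5a, a subunit of complex IV, had the steepest slope (0.89, SE 0.07, edgeR adjusted p = 1.14e-12). Cycs, which encodes the cytochrome c of somatic cells, had 0.87 (SE 0.06, edgeR adjusted p = 4.76e-14), and Uqcrfs1, the iron-sulphur protein of complex III, had 0.77 (SE 0.06, adjusted p = 8.31e-13). The shallowest were Ndufb10 (0.24, SE 0.05, edgeR adjusted p = 0.00117) and Atp5f1c (0.24, SE 0.05, adjusted p = 0.000545).

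Cycs shows the spread within groups. It was at 39.5, 41.3, 45.9 and 51.6 CPM in WT AL mice at 22 weeks, the group with the narrowest range of fat levels, and at 39.2, 57.1, 73.2 and 117 CPM in Ercc1Δ/- AL mice. In WT DR mice it was at 33.2, 40.2, 41.5, 93.2 and 107.2 CPM, with libraries 017 and 021 again the high ones. In Ercc1Δ/- mice at 6 weeks it was at 27.1, 28.1, 50.8, 59.8 and 117 CPM, a wider range than between any pair of group medians.

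Of the mtDNA genes, all 5 outside the copy were called on this slope, for example mt-Nd6 (0.64, SE 0.15, edgeR adjusted p = 0.00518) and mt-Nd2 (0.39, SE 0.10, adjusted p = 0.0129). mt-Nd3, mt-Co2 and mt-Atp6 were the called genes inside the copy. mt-Co1 (0.31, SE 0.11, edgeR adjusted p = 0.0721), mt-Nd4 (0.32, SE 0.11, adjusted p = 0.0902), mt-Co3 and mt-Nd4l were not called. Centred within groups over the 28 libraries, the fat level and the mean log2 CPM of the nuclear genes had r = 0.952 and rho = 0.930, and r = 0.936 without the 2 libraries with the farthest fat levels. For the mtDNA genes r was 0.550 and rho 0.581, and r was 0.451 without those 2. These are descriptions, since both measures come from the same libraries and share their depth and scaling.

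The mtDNA genes also varied with the library total within groups, with r = −0.528 and rho = −0.411 (r = −0.287 without 2 libraries), where the nuclear genes had r = −0.0618 and rho = −0.0109. As a slope within groups on the log2 total, chosen after the values were seen, no gene of the 52 was called by edgeR. All 12 mtDNA genes had a negative slope, with a median of −0.22, and the nuclear median was −0.07. The median was −0.55 over the 5 mtDNA genes inside the copy and −0.20 over the 5 outside it.

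The slope on fat was also fitted with each kind of fat marker alone. White and brown markers were never separate terms of 1 fit, so their separate parts in the slope were not tested. All 40 nuclear genes were called with white fat markers alone, with brown fat markers alone, and with smooth muscle, macrophage and cardiac muscle marker levels added. The mtDNA count was 3, 9 and 3 of 12 in these fits, beside 7.93%, 8.04% and 6.7% of all genes. The 10 cardiac muscle markers summed to 32.4 to 579 CPM. The level of the 6 tested ones (their mean log2 CPM) had r = 0.0831 within groups with the nuclear genes.

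**Figure D5:**
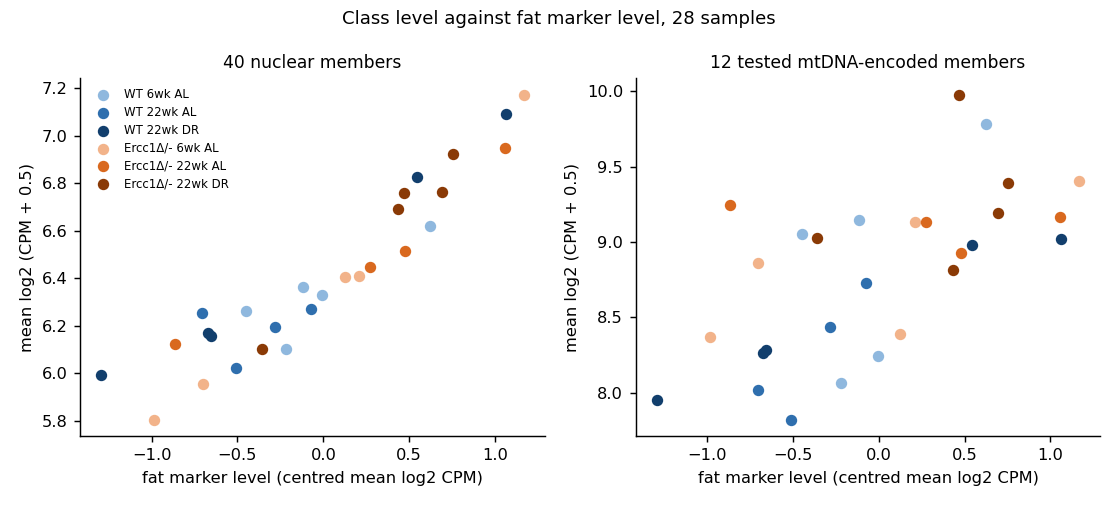
Mean log2 CPM of the 40 nuclear and of the 12 tested mtDNA-encoded genes against the fat marker level, 1 point per library, coloured by group. Within groups r was 0.952 for the nuclear and 0.550 for the mtDNA-encoded genes.

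Other genes of the pathway were read from lists of names, to be set beside the 7.14% of all genes that rose with fat markers. On the fat slope, 19 of 22 genes of the citric acid cycle and pyruvate dehydrogenase rose with the markers and none fell (median 0.58), among them Suclg1 (a subunit of succinyl-CoA ligase, 0.83, SE 0.05, edgeR adjusted p = 5.9e-15) and Idh3a (a subunit of the NAD-dependent isocitrate dehydrogenase, 0.80). Of 41 further nuclear subunits 33 rose (median 0.39), among them Cox8a (0.53). Of 4 tested tissue isoforms of complex IV, Cox7a1 (1.45, SE 0.13, edgeR adjusted p = 6.98e-10) and Cox8b (1.38, SE 0.14, adjusted p = 5.26e-08) rose, and both are known from muscle and brown fat.

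Among genes that build mitochondria, 23 of 77 mitochondrial ribosomal proteins rose with fat markers (median 0.17). So did 10 of 43 assembly factors (median 0.18), 12 of 23 membrane and import genes (median 0.20) and 4 of 29 genes of mtDNA maintenance and RNA handling (median 0.09). Of 14 regulators of biogenesis 5 rose (median 0.13), among them Esrra (0.46), Ppara (0.80) and the coactivator Ppargc1b (0.94, SE 0.15, edgeR adjusted p = 1.08e-05). Glycolysis genes rose in 11 of 17 cases (median 0.28). Both mitochondrial ribosomal RNAs and 3 of 5 pseudogenes of the copy rose as well.

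Between genotypes at 22 weeks under AL, none of the 41 further subunits (median 0.26), the 22 citric acid cycle genes (median 0.34) or the 29 genes of mtDNA maintenance and RNA handling (median 0.10) was called by edgeR, and 2, 3 and 1 of them had an unadjusted p under 0.05. Of all 12353 tested genes, 12% were called and 3217 had an unadjusted p under 0.05. Of the regulators, Ppargc1a, the coactivator known to drive mitochondrial biogenesis, rose in Ercc1Δ/- mice (1.57, SE 0.28, edgeR adjusted p = 0.000741), and Pprc1, of the same family, fell (−0.53, SE 0.14, adjusted p = 0.0114). Of the tissue isoforms Cox6b2 (1.45, edgeR adjusted p = 0.0148) and Cox4i2 (1.30, adjusted p = 0.0278) rose. In glycolysis Gapdh rose (0.50, edgeR adjusted p = 0.04) while Pfkm (−0.53, adjusted p = 0.00304) and Pfkp (−0.38) fell.

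Under DR, Ppargc1a (1.19, SE 0.24, edgeR adjusted p = 0.00157) and Cox4i2 (1.01, adjusted p = 0.0419) rose between genotypes and Idh2, the mitochondrial NADP-dependent isocitrate dehydrogenase, fell (−0.38, adjusted p = 0.0129), while 0 of the 41 further subunits was called. At 6 weeks Mterf2, a factor of mtDNA transcription, rose (1.08, SE 0.28, edgeR adjusted p = 0.0455). With age in Ercc1Δ/- mice Pfkm, the muscle phosphofructokinase, fell (−0.56, SE 0.11, edgeR adjusted p = 0.00233). In the age comparison of WT mice, both diet comparisons and both interactions, none of the genes of these lists was called by edgeR.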

How the data were processed

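The authors moved UMIs with UMI-tools 1.1.2, aligned reads with STAR 2.7.10a to GRCm39, deduplicated them and deposited raw counts per gene, taken over the whole gene, from HTSeq 2.0.2 (the submitters' notes also name bcl2fastq 2.20 and DESeq2 1.34.0). The strand setting is not given in the sources used here, so antisense partners such as mt-Nd5 and mt-Nd6 are uncertain. The table gives Ensembl identifiers. Symbols and lengths came from GENCODE M39 (56017 of 56748 matched), and levels per kilobase, given for mtDNA genes, use its merged exons. The 5 summary lines were left out of totals.

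Tested genes had counts above 10 in over 10 of the 28 libraries. They were fitted with edgeR 4.0.16 (R 4.3.3; TMM, quasi-likelihood, robust), with group and sex as terms, over the 18 AL libraries or the 18 libraries of 22 weeks, following the study's methods with edgeR in place of DESeq2. Genes were called at an adjusted p of at most 0.05 and, apart from interactions and slopes, a 1.2-fold change. The scripts were tested on simulated data. DESeq2 1.42.0, other scalings, filters, terms and left-out libraries were alternatives. Fat level is the centred mean log2 CPM (prior count 2) of the tested white and brown fat markers. Values in every library are given for called genes and, in each comparison, for the 2 genes of each class with the smallest p, apart from the interactions, whose libraries are those of the other comparisons. From each other list, up to 3 called genes with the smallest p could be named. Some of these genes are not reported here. The members and lists were chosen with earlier results of these data known. Each mouse gave 1 library, so n counts mice. Intervals from counts would cover counting error only and are not given.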

Additional observations from a re-analysis of the deposited data

Results flagged for a closer look

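Of 108 sets of a gene or class value in 1 group, 6 had a library far from the others by Dixon's criterion. The sets share libraries, and how many would be flagged by chance was not computed. WT AL library 018 at 22 weeks was the lowest for Atp5f1c, at 114 CPM against 131 to 132 CPM, and for Cox4i1, at 224 CPM against 255 to 261 CPM. Ercc1Δ/- DR library 014 was the highest for Ndufb10, at 136 CPM against 89.4 to 102 CPM. Ercc1Δ/- DR library 016 was the lowest for Uqcrb, at 33.0 CPM against 52.1 to 57.6 CPM. WT library 011 at 6 weeks was the highest for Uqcrc2, at 219 CPM against 141 to 163 CPM. WT DR library 028 was the lowest for mt-Nd4l, at 1.31 CPM against 2.71 to 3.24 CPM.

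The 29th library, WT AL at 22 weeks with 400410 gene counts, was not used in the comparisons. Its mtDNA share was 9.73% against 2.33% to 3.42% in the other mice of its group. Its nuclear share was 0.773% against 0.395% to 0.457%. The log2 ratio of the classes was 3.65 against 2.56 to 2.91.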

How the results depend on the processing

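No paired analysis was made. Each mouse gave 1 library, and the labels do not say which mice were littermates, so litter could not be put in the model. The library total as a term, alone or with fat markers, the earlier dispersion method of edgeR, further terms of the fat slope, the slope on the library total and the ratio without genes that overlap the copy were chosen after seeing the data. None of the 5 genes called between genotypes changed direction, but calls were lost and medians changed sign. Between genotypes at 22 weeks under AL, where 4 genes were called, there were 14 with only the 2 groups in the fit, 2 with all 6 groups, 1 without a filter, 1 when tested against 1.2-fold, and 0 with the library total, with fat and total together, or with library 003 added. Leaving out 1 library gave 1 to 9. The mtDNA median was 0.33 with fat and total and −0.035 with library 003. The nuclear median was 0.019 with fat and 0.018 with fat and total, and without 1 library 0.21 (library 004) to 0.52. Under DR, where 1 gene was called, there were 5 with DESeq2, 2 with RLE size factors, 2 with mtDNA genes out of the scaling, 2 without a sex term, and 0 with cardiac markers, fat, total, both, no filter, only the groups compared, library 003 or the test against 1.2-fold. Leaving out 1 library gave 0 to 3, and the mtDNA median was 0.044 with fat and total. With libraries thinned, 1 gene was called for age in WT mice and 1 for diet in WT mice. With library 003 the mtDNA median changed sign for age in WT (0.062), diet in WT (−0.35) and genotype by diet (0.56), and was 0.10 for genotype by age. For genotype by age DESeq2 called 1 gene, and the mtDNA median was 0.37 with fat and total. The fat slope called 41 to 51 genes when 1 library was left out and 43 to 50 under its other alternatives. The cause of these changes was not tested. At 22 weeks the shallower Ercc1Δ/- libraries limit genes with few counts, mt-Nd3 and mt-Nd4l above all.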
